A study of Mus musculus with 22 samples.

Results

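The loops described here are the long structural loops of a Hi-C series in mouse erythroblasts, taken from the authors' table of chromatin loops by 2 conditions: the table's category is structural, and the distance between the midpoints of the loop's anchors is above 500 kb. They number 1004, which is 20.8% of the 4837 structural loops and 6.13% of all 16370 loops of the table. Hi-C counts how often pairs of genomic sites are crosslinked together, and a loop is a pair of sites, its anchors, that meet more often than their surroundings. A structural loop has CTCF and cohesin bound at both anchors and lacks active regulatory elements at one or both of them.

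The cells were G1E-ER4, an erythroblast line derived from GATA1-null mouse cells, in which both Ctcf alleles carry an auxin-inducible degron with mCherry (CTCF-AID-mCherry). All groups, the controls included, carried this tag and a retroviral TIR construct, and all were arrested in prometaphase with nocodazole and sorted by stage; the construct used for ana/telophase differed from the one at other stages. Cells without auxin (-auxin) and cells given auxin from late in the arrest onwards (+auxin), which removes CTCF, were collected at release (prometaphase, 2 Hi-C samples per treatment), at 30 min (ana/telophase, 2 per treatment), 60 min (early-G1, 2 per treatment) and 120 min (mid-G1, 3 per treatment). A further set of mid-G1 samples of the series, with triptolide, have no column in the loop table and were not used here. The cells of each group share 1 engineered line, in which chromosome 3 carries a translocation.

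CTCF and the ring-shaped cohesin complex shape most loops of this kind. Cohesin is thought to reel in chromatin until it meets CTCF bound in the orientation that blocks it, so anchors of such loops tend to carry CTCF motifs that point at each other. Both proteins leave most sites during mitosis and return as cells enter G1, which makes the exit from mitosis a window in which loops can be watched as they form. Long loops are those for which the most chromatin lies between the anchors.

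The loops ran from 510 to 1990 kb, with a median of 750 kb and quartiles of 610 and 1000 kb. The table holds no loop above 2 Mb. Of the 1004 loops, 520 lay at or below 750 kb, 239 from there to 1000 kb and 245 above 1000 kb. The size rule cut through a continuous range: 38 structural loops measured exactly 500 kb and were left out, and 19 measured 510 kb and were kept. In mid-G1 the loops at 500 kb had median strengths of 2.62 without and 1.27 with auxin, and those at 510 kb 4.18 and 1.4. Of the 38 at 500 kb, 19 had summits 10 kb wide, with medians of 3.28 and 1.37. All 20 chromosomes held some, from 14 on chromosome 17 to 107 on chromosome 1, and their spans together covered 564 Mb, or 21.4% of these chromosomes.

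To show what lies at such anchors, 60 bases around a match to the CTCF core consensus (14 bases, by name alone since it holds degenerate letters) are given for loops described below, read from mm9 (NCBIM37), plus strand, 5′ to 3′, with the match in capitals. Forward means that the consensus itself stands on the plus strand, and reverse that it stands on the minus strand. Left is the anchor with the lower coordinate, so forward at a left anchor and reverse at a right anchor both point into the loop. The lines give the strongest loops, the loop with the largest fall, the longest loop and a loop with 9 shorter partners, and at the end the outward matches among the named loops.
Strongest loop, left anchor, forward, chr8:95535510-95535569: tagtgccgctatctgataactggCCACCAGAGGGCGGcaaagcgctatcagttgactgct
Strongest loop, right anchor, reverse, chr8:96723544-96723603: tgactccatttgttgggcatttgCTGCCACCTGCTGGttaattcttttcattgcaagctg
Second strongest loop, left anchor, forward, chr12:84213443-84213502: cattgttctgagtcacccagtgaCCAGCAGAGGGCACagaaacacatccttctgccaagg
Loop with the largest fall, right anchor, reverse, chr14:89381874-89381933: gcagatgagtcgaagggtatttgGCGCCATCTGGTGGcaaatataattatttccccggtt
Longest loop, left anchor, forward, chr8:110127088-110127147: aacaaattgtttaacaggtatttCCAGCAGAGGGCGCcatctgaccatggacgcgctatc
Loop with 9 partners, left anchor, forward, chr1:156873094-156873153: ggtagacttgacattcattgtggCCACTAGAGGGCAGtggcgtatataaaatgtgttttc
Strongest loop, left anchor, reverse, chr8:95522731-95522790: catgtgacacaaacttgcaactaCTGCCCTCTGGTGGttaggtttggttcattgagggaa
Loop of 650 kb that was stronger with auxin, left anchor, reverse, chr5:65258034-65258093: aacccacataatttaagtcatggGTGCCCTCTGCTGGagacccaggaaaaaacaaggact
Of the 11 matches in the anchor windows of the 13 named loops, 9 point into their loop and 2, the last lines, out of it, and 8 of the 13 loops have a match. In the strongest loop the inward matches on the first lines lie at 0.5 kb and at -1.4 kb, in coordinates, from the midpoints of the left and the right anchor, so both are on the loop's inner side.

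The loop strength used below is the authors' ratio of observed contacts to the contacts expected from the local surroundings, taken as the mean over a summit and the 8 pixels that surround it. A value of 1 means no enrichment. The table holds 1 value per loop and map, from replicates merged by the authors, so no value has a replicate error and no difference between stages or treatments was tested. In place of a replicate error, the SD of the medians taken chromosome by chromosome is given, which describes how far the result varies along the genome, not between cultures. Loops are not replicates of a condition, and neighbouring loops share anchors: the 2008 anchor ends of the 1004 loops fell on 1559 distinct sites, and 391 loops (38.9%) had both sites to themselves. The strengths were read from the same maps on which the loops were called, and the sequencing depth of those maps is not in the tables used here.

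Without auxin, the long loops had a median near no enrichment in prometaphase and a higher one at every later stage. Their median strength was 1.06 (SD over chromosomes 0.05, n = 20 chromosomes) in prometaphase. It stood at 1.68 (0.10) by ana/telophase, at 2.19 (0.18) by early-G1 and at 2.75 (0.27) by mid-G1. With auxin the medians were 1.01 (0.05), 1.18 (0.05), 1.27 (0.09) and 1.36 (0.07). The medians of the treatments were close in prometaphase and apart from ana/telophase onwards. With auxin the median was still higher in mid-G1 than in prometaphase, by 0.35 against 1.69 without it.

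A single median hides that the long loops come in 2 kinds by the map they were called on. Of the 1004, 516 had summits 10 kb wide and 488 had summits 25 kb wide, which the authors added where no 10 kb call overlapped. The share of 25 kb summits was 48.6% (95% Wilson interval 45.5 to 51.7%), against 20.8% (19.0 to 22.8%) of the 1804 structural loops of 200 to 500 kb and 5.72% (4.79 to 6.81%) of the 2029 structural loops up to 200 kb. These intervals, and those below, cover counting error only. A 25 kb summit averages over more sequence, and in mid-G1 it gave lower medians in all 3 size classes and both treatments, so loop sizes were compared within each width.

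**Figure D1:**
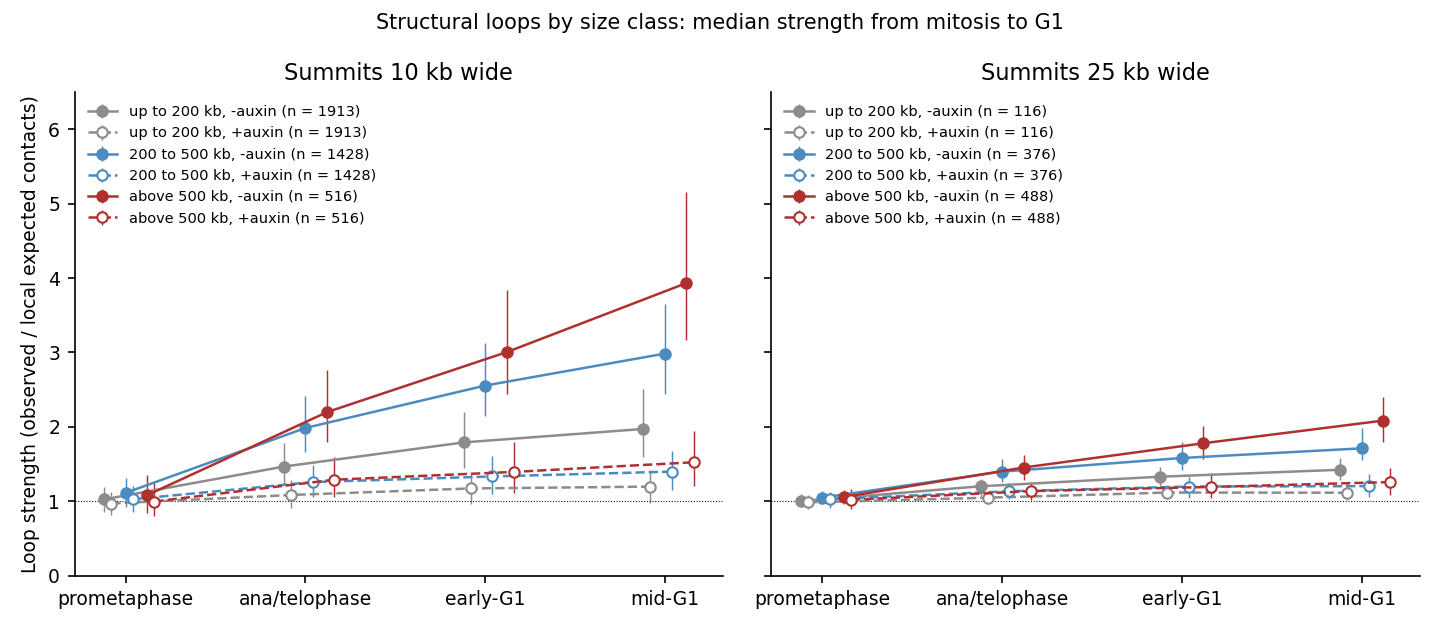
Median loop strength (observed over locally expected contacts, linear axis from 0) at 4 stages for structural loops of 3 size classes, with 10 kb summits on the left and 25 kb summits on the right. Filled points and solid lines are -auxin, open points and dashed lines +auxin, bars run from the lower to the upper quartile over loops, and the dotted line marks no enrichment; with 10 kb summits the long loops reach 3.93 in mid-G1 without auxin and 1.52 with it.

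Within each summit width, the long loops had the highest mid-G1 median of the 3 size classes without auxin. Among 10 kb summits, the median without auxin was 3.93 (SD over chromosomes 0.65) for long loops, 2.98 (0.29) for loops of 200 to 500 kb and 1.97 (0.16) for loops up to 200 kb. Among 25 kb summits it was 2.08 (0.17), 1.71 (0.08) and 1.42 (0.07). The long loops had the higher median on 20 of 20 chromosomes against either shorter class with 10 kb summits, and on 20 of 20 against the 200 to 500 kb class with 25 kb summits. Pooled over widths, the long loops and the 200 to 500 kb loops stood at 2.75 and 2.70, and the long loops were higher on 10 of 20 chromosomes. Summit width is itself an outcome of the calling, and the share of 25 kb summits differs between the size classes, as given above. How far the calling, by width or by distance, sets these levels and their order was not tested.

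The rise with size went on inside the long class. With 10 kb summits the mid-G1 median without auxin was 3.72 for 500 to 750 kb (n = 283), 4.04 for 750 to 1000 kb (n = 125), 4.09 for 1000 to 1500 kb (n = 85) and 5.82 above 1500 kb (n = 23). With 25 kb summits it was 1.95 (n = 237), 2.08 (n = 114), 2.22 (n = 90) and 2.30 (n = 47). Quartiles of neighbouring bins overlapped throughout, as the plot of strength against size shows.

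**Figure D2:**
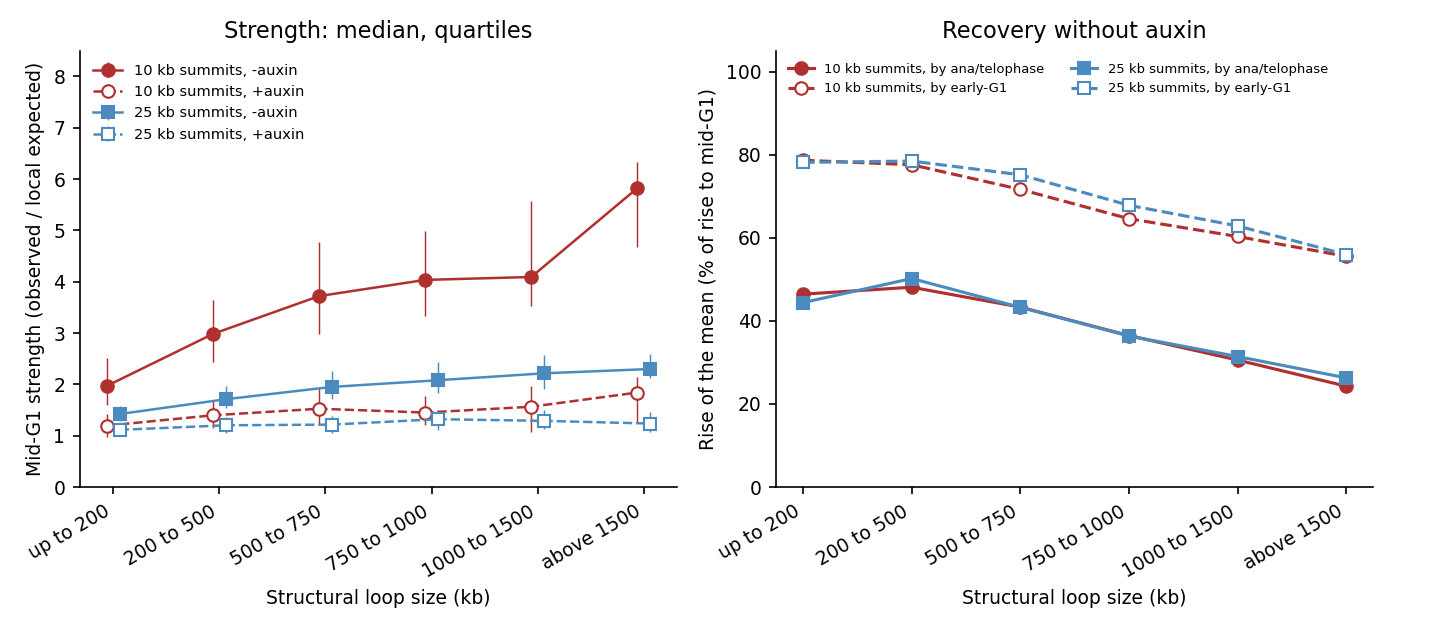
Left, median mid-G1 strength with quartiles (bars) of structural loops in 6 size bins, by summit width and treatment; right, the rise of the mean strength without auxin by ana/telophase and by early-G1, in percent of the whole gain between prometaphase and mid-G1. Without auxin strength rises, and early recovery falls, from the 200 to 500 kb bin to the longest loops, to 24.3% (10 kb summits) and 26.3% (25 kb summits) by ana/telophase above 1500 kb, while the medians with auxin follow no steady order.

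Scaled to mid-G1, the mean strength of the long loops also rose later than that of both shorter classes. By ana/telophase the mean strength of the long loops had made 37.8% of its rise to mid-G1 (SD over chromosomes 4.07, n = 20), and by early-G1 67.2% (4.60). The structural loops of 200 to 500 kb had made 48.3% (2.66) and 77.7% (3.48), and those up to 200 kb 46.4% (3.01) and 78.6% (3.79). Summit width made little difference, with 38.0% and 37.1% by ana/telophase for long loops with 10 kb and 25 kb summits. The share fell with length. By ana/telophase the long loops of 500 to 750 kb had made 43.3% of their rise, those of 750 to 1000 kb 36.4%, those of 1000 to 1500 kb 30.8% and those above 1500 kb 25.0%. From early-G1 to mid-G1, strength went up in 88.4% of long loops, against 81.3% and 79.7% of the shorter classes, by a median log2 step of 0.29 against 0.18 and 0.15.

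The stage at which the authors first called a loop without auxin comes from the same maps and is no separate evidence of timing. Of the long loops, 81 (8.07%, 95% Wilson interval 6.54 to 9.92%) were first called in ana/telophase, 291 (29.0%, 26.3 to 31.9%) in early-G1 and 625 (62.3%, 59.2 to 65.2%) in mid-G1, and none in prometaphase. First calls in ana/telophase were made for 16.4% (14.7 to 18.1%) of the 200 to 500 kb loops and 16.8% (15.2 to 18.5%) of those up to 200 kb. Above 1000 kb, 4 of 245 loops (1.63%, 0.637 to 4.12%) were first called in ana/telophase. A call needs contacts in the map, and its stage therefore depends on depth as well as on strength. The long loops first called in ana/telophase had a median size of 640 kb and those first called in mid-G1 of 820 kb. Over both summit widths, the ana/telophase median of those not called before mid-G1 was 1.62. Recovery is scaled to mid-G1, the stage of first call for 62.3% of the long loops, 45.2% of the 200 to 500 kb loops and 40.2% of the shortest. How far this selection sets the difference in recovery was not tested. The stage of first call is set by strength in these same maps, so recovery split by it is given as a description only. Within loops first called in mid-G1, the mean had made 33.8% of its rise by ana/telophase for long loops (n = 625), 42.1% for those of 200 to 500 kb (n = 816) and 39.0% for those up to 200 kb (n = 816). Within loops first called in early-G1 these were 40.3%, 47.9% and 45.2%, and within loops first called in ana/telophase 51.4%, 58.3% and 55.7%.

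With auxin, nearly all long loops were weaker in mid-G1. The median log2 change from -auxin to +auxin was -0.99 (SD over chromosomes 0.14, quartiles -1.44 and -0.65), and 983 of 1004 (97.9%, 95% Wilson interval 96.8 to 98.6%) were below 0, against 77.1% of all loops of the table and 98.5% (97.8 to 99.0%) of structural loops of 200 to 500 kb. A log2 change of -1 or below was reached by 498 (49.6%, 46.5 to 52.7%), against 16.8% of all loops and 47.8% (45.5 to 50.1%) of those of 200 to 500 kb. These strengths come from the maps on which the loops were called. Of the long loops 97.7% were called in -auxin maps only, against 71.1% of all loops. How far this selection sets the fall and its distance from all loops was not tested. In prometaphase 551 (54.9%, 51.8 to 57.9%) were below 0, against 54.4% of all loops, with a median of -0.06. At the stages between, the medians were -0.53 (SD over chromosomes 0.09) in ana/telophase and -0.77 (0.13) in early-G1.

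**Figure D3:**
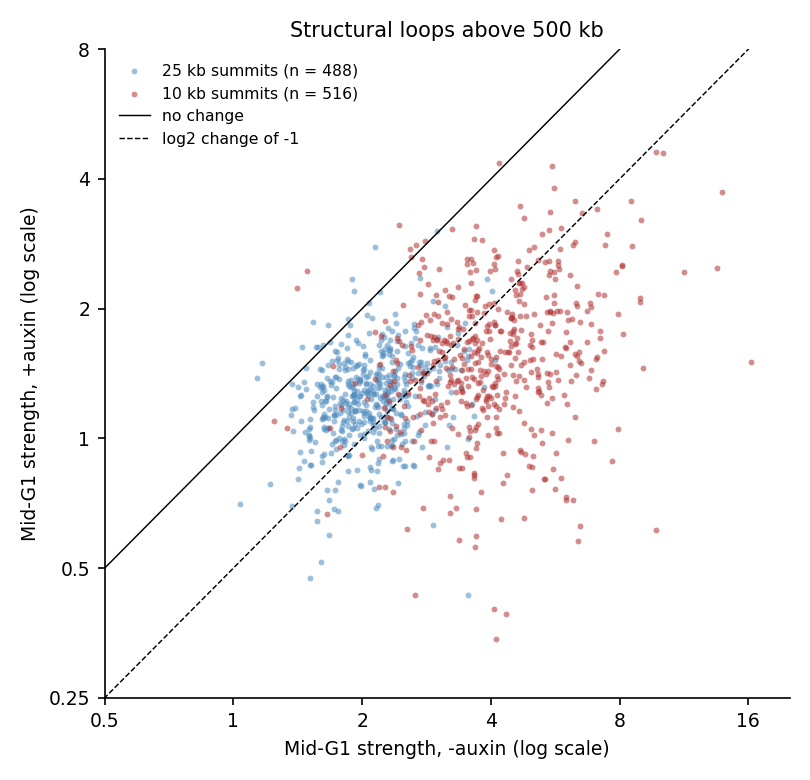
Mid-G1 strength with auxin against mid-G1 strength without auxin for the 1004 structural loops above 500 kb, both axes logarithmic; each point is 1 loop, coloured by summit width. The solid line marks equal strength, above which 21 loops lie, and the dashed line a log2 change of -1, at or below which 498 lie.

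Within each summit width the median fall was larger in the longer size classes. Among 10 kb summits, the median mid-G1 log2 change was -1.36 (SD over chromosomes 0.20) for long loops, -1.09 (0.14) for loops of 200 to 500 kb and -0.73 (0.14) for loops up to 200 kb. Among 25 kb summits it was -0.75 (0.13), -0.54 (0.09) and -0.34 (0.08). The fall was larger in long loops than in the 200 to 500 kb class on 18 of 20 chromosomes at either width. Pooled over widths, the 2 classes stood at -0.99 and -0.98, and the fall was larger in long loops on 10 of 20 chromosomes. Within each width the longer classes also had the higher median mid-G1 strength without auxin. Over both widths, the share called in -auxin maps only was 97.7%, 96.3% and 91.6% from the longest class to the shortest. How far starting strength and selection set the order of the falls was not tested. Single loops scattered widely: in prometaphase, where the medians were near 1 in both treatments, the quartiles of the log2 change of long loops with 10 kb summits were -0.51 and 0.32, against -0.32 and 0.16 for 10 kb summits up to 200 kb.

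What remained with auxin was small. In mid-G1 the median strength with auxin was 1.52 (quartiles 1.21 and 1.95) for long loops with 10 kb summits and 1.26 (1.08 and 1.45) for those with 25 kb summits. The mean strength with auxin rose from prometaphase to mid-G1 by 19.5% of the rise without auxin, close to the 20.0% of 200 to 500 kb loops and the 22.7% of the shortest class. Of the 1004 loops, 981 (97.7%, 95% Wilson interval 96.6 to 98.5%) were called by the authors in -auxin maps only, against 71.1% of all loops, 96.3% of structural loops of 200 to 500 kb and 91.6% of those up to 200 kb. Another 16 were called in both treatments and 7 with auxin only, so 23 long loops were called with auxin at any stage, against 28.9% of all loops. Loops above 500 kb of other categories had smaller median changes, but they entered the table through other maps: 20.1% of dual-function, 27.3% of CRE and 14.2% of uncategorised loops were called with auxin only, against 0.697% of the long structural loops. The median mid-G1 log2 change above 500 kb was -0.30 for 573 dual-function loops, -0.08 for 1029 loops between cis-regulatory elements (CRE loops) and -0.34 for 533 uncategorised loops with a ratio.

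Single loops show the range. The strongest was the 1190 kb loop on chromosome 8 with anchor midpoints at 95535000 and 96725000. Without auxin its strength went from 0.74 (prometaphase) through 3.42 (ana/telophase) and 4.79 (early-G1) to 16.2 (mid-G1), and with auxin it was 1.34, 0.57, 1.37 and 1.51 at the same stages. Most of its rise came after early-G1, its values with auxin stayed below 2, and 18 protein-coding genes start inside it. No shorter structural loop shared its anchors, which carry the facing consensus matches printed above. Its left window also held a reverse match, at -12.2 kb from the midpoint and so outside the loop.

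The second strongest, a 620 kb loop on chromosome 12 (midpoints 84215000 and 84835000), followed another course. Its strengths without auxin were 2.67, 9.55, 12.4 and 13.9 from prometaphase to mid-G1, and with auxin 2.52, 2.90, 3.97 and 3.74. It had most of its mid-G1 strength by ana/telophase, and it was above 2 in mitosis in both treatments, where the median long loop was near 1. Its left summit lies in Rgs6, a gene for a regulator of G-protein signalling, where the forward match printed above stands. The third, an 1130 kb loop on chromosome 15 (71745000 and 72875000), joins Col22a1, a collagen gene, to Trappc9, a gene for a subunit of a trafficking complex. It went through 1.16, 4.73, 7.66 and 13.5 without auxin and 0.83, 0.90, 1.46 and 2.49 with it, a rise at each stage in both. Neither anchor window of this loop held a match without mismatch.

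The largest fall was that of a 1520 kb loop on chromosome 14 (87865000 and 89385000), whose left summit lies in Tdrd3, a gene for a Tudor domain protein. Its strengths were 1.25, 1.64, 4.67 and 9.72 without auxin and 1.4, 0.83, 0.88 and 0.61 with auxin, a mid-G1 log2 change of -3.99. With auxin it ended below its mitotic level. The next largest falls, -3.58 for an 810 kb loop on chromosome 13 and -3.47 for a 610 kb loop on chromosome 5 from Kcnip4, a gene for a potassium channel interacting protein, to Gpr125, an adhesion receptor gene, also rested on low values with auxin, of 0.34 and 0.39. Such values lie below the local expectation, and their error is not known. The longest loop, of 1990 kb on chromosome 8 (110125000 and 112115000), with its right summit in Dhodh, a gene of pyrimidine synthesis, went through 0.34, 2.66, 3.75 and 6.07 without auxin and 0.98, 1.84, 1.65 and 1.88 with it. It gained most between prometaphase and ana/telophase and again by mid-G1.

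Of the 21 long loops that were not weaker with auxin in mid-G1, 2 gained 0.5 or more on the log2 scale. A 760 kb loop on chromosome 16 (92695000 and 93455000), with its left summit in Runx1, a transcription factor of blood stem and progenitor cells, went through 0.93, 1.46, 2.61 and 1.49 without auxin and 1.35, 1.11, 1.88 and 2.44 with it, a mid-G1 log2 change of 0.71. Its order of treatments turned between early-G1, at -0.47, and mid-G1. A 650 kb loop on chromosome 5 (65255000 and 65905000), whose only match without mismatch points outwards, changed by 0.66, and the next, a 1675 kb loop on chromosome 14 (65987500 and 67662500) between Zfp395, a zinc-finger protein gene, and Ppp2r2a, a phosphatase subunit gene, by 0.37. The last rose in both treatments, through 1.19, 1.73, 2.08 and 2.15 without and 1.21, 1.78, 2.33 and 2.78 with auxin. Both of these were called with auxin only.

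The question whether shorter structural loops use the same anchors was answered by distance: a shorter structural loop of the same chromosome counted as a partner where one of its anchor midpoints lay within 20 kb of one of the long loop's. At least 1 partner was found for 775 of 1004 long loops (77.2%, 95% Wilson interval 74.5 to 79.7%), at both anchors for 403 (40.1%, 37.2 to 43.2%), at 1 anchor for 372 (37.1%, 34.1 to 40.1%) and at neither for 229 (22.8%, 20.3 to 25.5%). The median number of partners was 2 and the largest 9. Since a longer loop has more loops shorter than itself to draw from, the shares cannot be read across size classes. Counting only structural loops up to 500 kb as partners, 67.0% of the long loops shared an anchor. With the same partners for both classes, structural loops up to 200 kb, 425 long loops (42.3%, 39.3 to 45.4%) and 976 of the 1804 loops of 200 to 500 kb (54.1%, 51.8 to 56.4%) shared an anchor, and among 10 kb summits 42.6% and 55.3%. Seen from the other side, 1147 of the 3833 structural loops up to 500 kb (29.9%) shared an anchor with a long loop.

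**Figure D4:**
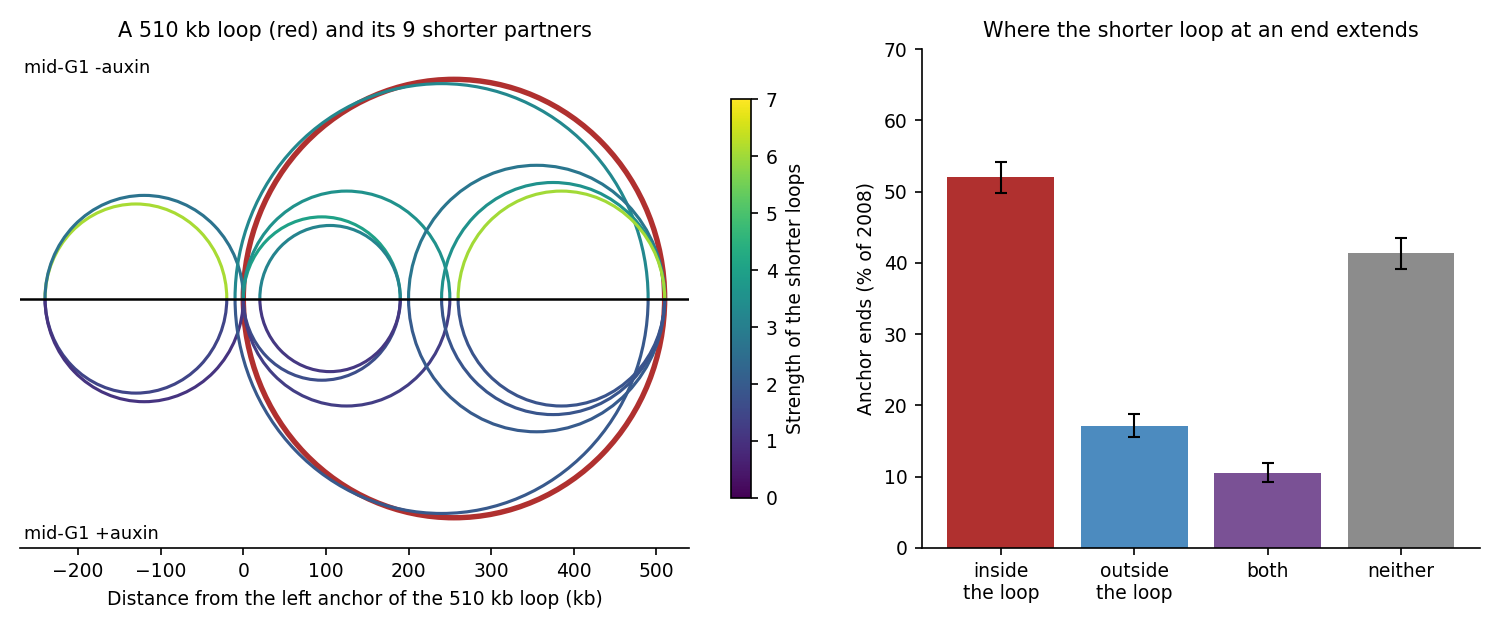
Left, a 510 kb loop (red, both maps) and the 9 shorter structural loops that share its anchors, drawn as arcs over the distance from its left anchor in kb, above the line for mid-G1 -auxin and below it for mid-G1 +auxin, with the strength of the shorter loops in colour. Right, the percentage of the 2008 anchor ends of long loops (bars from 0, with 95% Wilson intervals) at which a shorter partner extends inside the loop, outside it, both (counted in the first 2 bars as well) or neither, namely 52.0%, 17.1%, 10.5% and 41.3%.

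More anchor ends had a partner that ran into the long loop than one that ran out of it. Of the 2008 anchor ends, 1045 (52.0%, 95% Wilson interval 49.9 to 54.2%) had a nested partner. A nested partner is one whose anchor on the same side lay within 20 kb, so that it runs inwards from there. A partner that extends outwards from the anchor was found at 344 ends (17.1%, 15.5 to 18.8%). Both kinds met at 211 ends (10.5%). Counting only partners up to 200 kb, 17.9% of long-loop ends had a nested and 8.02% an outward partner. For the ends of 200 to 500 kb loops these shares were 27.4% and 12.7%, so nested partners were the more frequent kind in both classes. Nested partners stood at both anchors of 350 long loops (34.9%), and in 148 of these the left and the right partner met within 20 kb of each other, so that a pair of shorter loops spanned the long one. For 49 long loops a shorter loop shared both anchors within 20 kb, and it counts as nested at both. With other categories, 346 long loops (34.5%) had an anchor within 20 kb of a CRE loop's, and 407 (40.5%) of a dual-function loop's. Among the other loops above 500 kb, an anchor was shared with a shorter structural loop by 65.8% (61.8 to 69.6%) of dual-function, 44.2% (40.0 to 48.4%) of uncategorised and 36.3% (33.5 to 39.3%) of CRE loops.

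The loop drawn as arcs lies on chromosome 1 (156875000 and 157385000) and is one of 8 long loops with 9 partners, taken by its place in the table. Its own strengths were 1.61, 3.35, 5.52 and 5.79 without auxin and 0.93, 1.97, 2.54 and 2.75 with it. Its partners, from 170 to 500 kb long, had mid-G1 strengths from 2.66 to 6.07 without auxin, with a median of 3.54, and a median of 1.65 with auxin. All 9 were weaker with auxin, by -0.47 to -2.07 on the log2 scale, and the long loop, by -1.07, lay inside that range. A second loop with 9 partners, of 770 kb on chromosome 16 (95415000 and 96185000), had 4.92 in mid-G1 without and 2.74 with auxin, above the highest of its partners without auxin, at 3.82. The third loop taken, of 520 kb on chromosome 1 (162135000 and 162655000), with its summits in Cacybp and Mrps14 on the left and Rabgap1l on the right, had 3.16 without and 1.85 with auxin, and partners from 1.65 to 4.23 without auxin, of which the highest lie above it.

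Long loops were compared with their own nested partners, taking the median over the partners of a loop. For the 348 long loops with a nested partner where both had 10 kb summits, the long loop was the stronger in mid-G1 without auxin in 244 (70.1%, 95% Wilson interval 65.1 to 74.7%), with medians of 3.85 for the long loops and 3.14 for their partners. In prometaphase it was the stronger in 182 (52.3%, 47.1 to 57.5%). The mid-G1 log2 change was -1.27 in these long loops and -1.14 in their partners, and the long loop had the smaller fall in 42.5% (37.4 to 47.8%) of the sets. With all summit widths the long loop was the stronger in 53.1% (49.4 to 56.8%) of 695, and the order of the falls turned, with -0.98 in long loops and -1.03 in partners and the smaller fall in the long loop in 53.5% (49.8 to 57.2%). By the authors' calls without auxin, the shorter loop of 1689 nested pairs was called at an earlier stage in 620 (36.7%), at the same stage in 720 (42.6%) and later in 349 (20.7%).

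Long loops with and without shared anchors had similar mid-G1 medians without auxin. With 10 kb summits, the mid-G1 median without auxin was 3.98 (SD over chromosomes 0.88) for long loops with no shared anchor, 3.86 (0.41) with 1 and 3.96 (0.65) with both. With auxin it was 1.41, 1.49 and 1.59, and the log2 changes were -1.46 (0.41), -1.38 (0.18) and -1.29 (0.24). With 25 kb summits the changes were -0.85 (0.18), -0.72 (0.18) and -0.71 (0.15). At both widths the median fall was largest with no shared anchor and smallest with both shared. The steps in the log2 change were smaller than the SD over chromosomes. That SD describes spread along the genome and is not the error of these medians, so it cannot decide whether the falls differ.

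The direction of the CTCF consensus was read at all anchors, since the rule for these loops uses CTCF and cohesin peaks but not their orientation. A 30 kb window centred on the anchor midpoint held a match without mismatch at 771 of 2008 anchor ends (38.4%, 95% Wilson interval 36.3 to 40.5%), against 6.99% of all 30 kb windows of the genome. The consensus is strict, and a window without a match may still hold a CTCF site of another sequence. Matches pointing into the loop stood at 666 ends (33.2%, 31.1 to 35.3%) and matches pointing out of it at 154 (7.67%, 6.58 to 8.92%). In all genome windows, forward matches stood in 3.53% and reverse matches in 3.75%. Counted by distance, 401 inward matches lay within 5 kb of the anchor midpoints and 59 outward ones. Farther off, from 5 to 30 kb, the inward matches were about as many on either side of the midpoint, with 234 on the outer and 220 on the inner side, whereas 197 outward matches lay on the outer and 60 on the inner side.

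**Figure D5:**
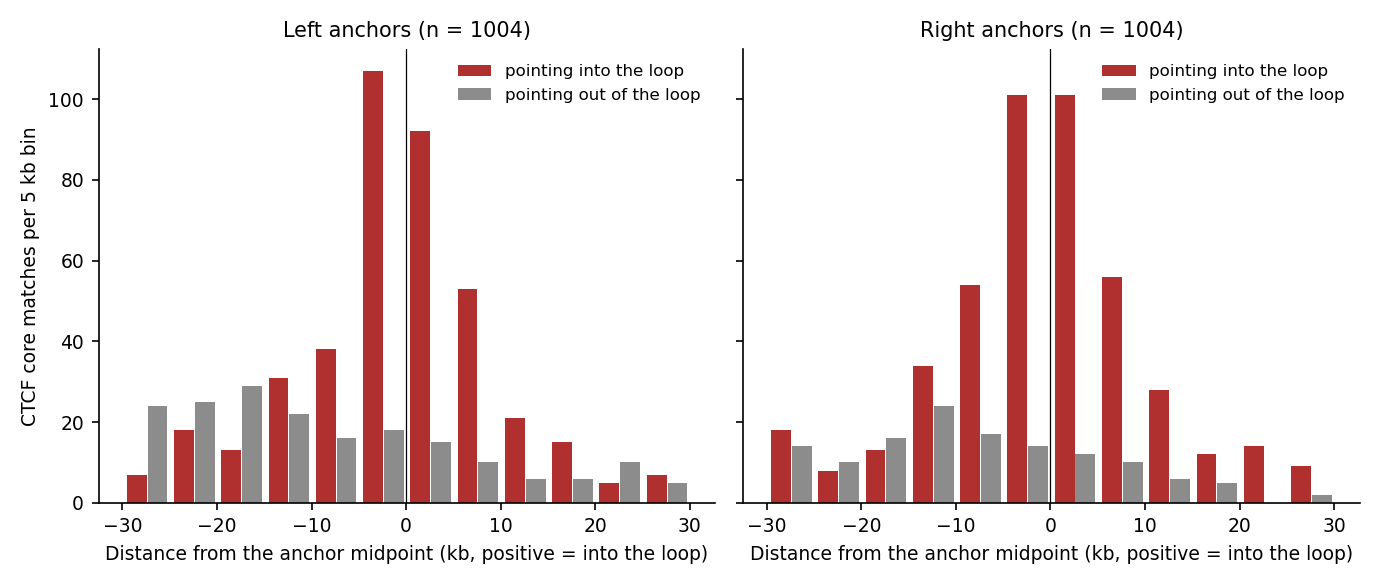
Number of CTCF core matches per 5 kb bin by distance from the anchor midpoint (kb, positive into the loop) for the left and the right anchors of the 1004 long loops, split by whether the match points into or out of the loop. Inward matches peak at the midpoint, with 401 within 5 kb over both sides, and outward matches lie mostly on the outer side of the anchor.

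Facing pairs were the most frequent arrangement where both anchors could be read. Left anchors held a forward and right anchors a reverse match in 111 of 1004 long loops (11.1%, 95% Wilson interval 9.26 to 13.1%), and the opposite, divergent arrangement was found in 5 (0.498%). With 1 mismatch allowed, where 89.1% of the anchor windows hold a match, these shares were 65.0% and 20.4%, and a loop can then count in both. Of the 130 long loops with matches on a single strand at each anchor, 93 (71.5%, 63.3 to 78.6%) were convergent, 17 had both matches forward, 18 had both reverse, and 2 (1.54%) were divergent. The convergent share was 59.4% (52.8 to 65.8%) of 217 loops of 200 to 500 kb and 60.5% (53.7 to 66.9%) of 205 up to 200 kb, and the intervals of the 3 classes overlap. In 10 kb windows the order of the longer classes turned, with 71.1% (56.6 to 82.3%) of 45 long loops and 79.8% (69.96 to 86.96%) of 84 loops of 200 to 500 kb, so no order of the classes is drawn from these shares. Above 1000 kb, 27 of 33 (81.8%, 65.6 to 91.4%) were convergent. For CRE loops above 500 kb, 3 of 11 were. With 10 kb summits, the medians of long loops with a convergent pair (n = 62) and with no match (n = 198) were 4.03 and 4.07 in mid-G1 without auxin and 1.60 and 1.5 with it. The 18 with matches at both anchors that were not convergent had 3.28 and 1.35.

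Outward matches were more frequent where a partner extended outwards. At the 133 ends where the shorter partners extended only outwards, 24.1% (95% Wilson interval 17.6 to 32.0%) held an outward match. At the 834 ends with nested partners only, 4.92% (3.64 to 6.60%) did. Inward matches stood at 29.3% (22.3 to 37.6%) of the former and 34.7% (31.5 to 37.9%) of the latter. Ends with partners on both sides had both, with 43.1% (36.6 to 49.9%) inward and 15.2% (11.0 to 20.6%) outward.

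Domain boundaries, sites across which contacts are depleted, lay at many of the anchors. A boundary of the authors' table lay within 30 kb of 1111 of the 2008 anchor ends (55.3%, 95% Wilson interval 53.1 to 57.5%), a share like that of the 200 to 500 kb loops (55.6%, 53.9 to 57.2%) and above that of loops up to 200 kb (41.2%, 39.6 to 42.7%) and of all loops (41.4%). Both anchors had one in 301 long loops (30.0%). At least 1 further boundary lay between the anchors in 939 (93.5%), with a median of 2 and at most 7. Per Mb between the anchors this came to 2.26 boundaries, near the 2.42 of the 20 chromosomes as a whole. The depth of the insulation dip, as the authors' difference between the peak of the insulation signal around a boundary and its value there, had a mid-G1 median of 0.82 without and 0.47 with auxin over the 807 boundaries at long-loop anchors. The 5569 other boundaries had 0.44 and 0.32, and boundaries at the anchors of shorter structural loops were deeper, with 0.91 and 0.50 for 200 to 500 kb and 0.95 and 0.52 up to 200 kb. The median log2 change was -0.86 (SD over chromosomes 0.16), and 92.7% of boundaries at long-loop anchors were weaker with auxin, against 75.5% of all boundaries and 95.6% of those at the anchors of 200 to 500 kb loops. For the latter the median log2 change was -0.89 (0.13), a difference within the SD. Some boundaries stand in more than 1 of these groups.

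The median number of genes per Mb was lower in the long loops than in shorter structural loops. By GENCODE vM1, a median of 4 protein-coding genes (quartiles 2 and 8, at most 86) start inside a long loop, and 19 loops hold none. Per Mb of loop the median was 5.56, against 8.82 for loops of 200 to 500 kb and 14.3 for those up to 200 kb. In a short loop a single gene already gives a high value per Mb, so these medians are not on equal terms. The 20 chromosomes held 8.47 genes per Mb of their whole length, which is a mean and not a median over spans. The anchor summit overlapped the body of a protein-coding gene at 57.5% of ends (95% Wilson interval 55.3 to 59.6%), against 90.4% (89.0 to 91.6%) for CRE loops above 500 kb. The category itself was set by regulatory elements, and wider summits overlap genes more readily.

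From a list of 30 regulators and markers of the erythroid lineage and its progenitors, 29 were found by symbol and 13 (44.8%, 95% Wilson interval 28.4 to 62.5%) start inside at least 1 long loop, against 19.6% of all protein-coding genes. The list was chosen with results of these data known, and this difference was not tested. Of the 25 loops around these genes, 24 were weaker with auxin in mid-G1, 8 of them with a log2 change of -1 or below, a level that 49.6% of all long loops reached, and the median was -0.90 against -0.99. The globin loci were among them. Hbb-b1, an adult beta-globin gene, starts inside a 1260 kb loop with strengths of 1.20, 1.5, 3.42 and 3.59 without and 1.30, 0.75, 0.71 and 1.56 with auxin. A 1425 kb loop with a 25 kb summit also holds it, with 1.10, 1.32, 2.1 and 2.52 without and 1.04, 1.09, 1.20 and 1.36 with auxin. Hba-a1, an alpha-globin gene, starts inside a 650 kb loop with 1.14, 2.12, 3.42 and 3.37 without and 0.86, 1.33, 1.43 and 1.81 with auxin. Without auxin the 1260 kb and the 650 kb loop were close to their mid-G1 strength by early-G1, and all 3 loops were lower with auxin from ana/telophase on.

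Progenitor regulators lay in others. Lmo2, a partner of the erythroid GATA1 complex, starts 36 kb inside a 540 kb loop that went from 4.08 in mid-G1 without auxin to 1.32 with it. Ikzf1, a lymphoid transcription factor gene, lies in a 510 kb loop that went from 4.29 to 1.20. Ets1 and Fli1, neighbouring genes of the ETS family of transcription factors, lie in the same 690 kb loop, which went from 3.80 to 0.75, a log2 change of -2.34. A second loop around Ets1, of 525 kb with a 25 kb summit, changed by -0.54. Smaller changes than that of Lmo2, at -1.62, were found around Cebpa, a myeloid factor gene, with -1.39 and -0.57 in a pair of loops, around Sox6, a repressor gene of embryonic globin, with -0.87 to -1.05 in 3 loops, and around Klf3, a transcriptional repressor gene, with -0.98. Myc, a growth regulator gene, starts 1 kb from the anchor midpoint of an 830 kb and of an 810 kb loop, which changed by -0.95 and -1.36. The loop around Kit, the stem cell factor receptor gene, changed by -0.85 and that around Bcl2l1, a survival gene, by -0.47. Runx1 starts inside 8 overlapping long loops, of which 7 were weaker with auxin in mid-G1, with log2 changes from -0.18 to -1.12, and 1 is the loop described above with a change of 0.71. Gata1, Gata2, Tal1, Klf1 and Myb are among the 16 genes found whose start lies in no long loop.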

How the data were processed

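In situ Hi-C was made from sorted cells of 4 stages with and without auxin. The authors aligned reads to mm9 with HiC-Pro and bowtie2, merged replicates, and called loops (HICCUPS with their own changes, on maps of 10 kb and of 25 kb) and boundaries (rGMAP). The deposited loop strengths are observed over expected ratios, and the deposited boundary values are differences of insulation signal, 1 per map, and the tables used here hold neither map depth nor values by replicate. The members and lists were chosen with earlier results of these data known.

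From these values, medians, quartiles, log2 changes of +auxin over -auxin without pseudocount, and Wilson 95% intervals were computed with Python 3.11.15, numpy 2.4.6, pandas 2.3.3, scipy 1.17.1 and matplotlib 3.10.9. Chromosomes with fewer than 5 loops gave no chromosome median. Recovery is the gain of the mean strength over prometaphase, in percent of the gain to mid-G1. Anchors within 20 kb were shared, and a boundary within 30 kb lay at an anchor. The CTCF core was searched on both strands in 30 kb windows of NCBIM37, and genes are those of GENCODE vM1. Scripts were tested on simulated data. Named loops were the 3 strongest in mid-G1 without auxin, the 3 lowest and 3 highest log2 changes, the longest, and the 3 with the most partners. Alternatives were other summit widths, sizes, distances, partners, windows, a mismatch, a pseudocount, means and centring. Compartment, gene expression and triptolide data were not used here.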

Additional observations from a re-analysis of the deposited data

How the results depend on the processing

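No paired analysis was possible because the columns of the tables used here carry no replicate number: each holds 1 value per loop and merged map. Maps by replicate were not analysed here, and no test was run. Of 75 alternatives, 36 moved a value by more than the spread over chromosomes or its counting interval or, for the number of loops, by over 1.5 times, and 39 did not. The median log2 change stayed below 0 under the 12 alternatives run for it. The percent of long loops weaker with auxin and both recovery percentages stayed within it under every alternative run.

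Limits of 400 and 600 kb gave 1347 and 756 loops. Limiting the set by construction left 245 loops above 1000 kb, 516 with 10 kb summits and 488 with 25 kb summits. With 10 kb summits the mid-G1 median strength was 3.93 (-auxin) and 1.52 (+auxin), with a log2 change of -1.36. With 25 kb summits these were 2.08, 1.26 and -0.75. Means in place of medians gave 3.26 and 1.46. The log2 change was -0.79 with a pseudocount of 0.5, -1.16 as the ratio of mean strengths and -0.61 after centring on the median of all loops, which was -0.38. The percent of long loops sharing an anchor was 72.1 within 10 kb, 80.3 within 30 kb and 82.9 within 50 kb. It was 81.4 with dual-function partners added, 67.0 with partners up to 500 kb only, 79.8 and 74.4 for 10 kb and 25 kb summits, and 72.7 above 1000 kb. The percent of anchor ends with a boundary was 42.9 within 20 kb and 70.1 within 50 kb. The percent of long loops with a convergent pair was 3.39 in 10 kb windows and 65.0 with 1 mismatch allowed, beside 20.4 for a divergent pair, where 49.1% of genome windows held a match. Apart from wider or narrower limits and subsets, the cause was not tested. The depth of the maps is not in the tables used here.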
